A study of Mus musculus with 27 samples.

Results

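Zfp512b, the mouse counterpart of the zinc finger gene ZNF512B, was disrupted in V6.5 mouse embryonic stem cells, and the clone KO4 was taken through a cardiomyocyte (CM) differentiation beside unmodified WT cells. The genes described are all those with a base mean, the average normalised read count over the libraries of a table, of at least 50 in the deposited comparison of CM KO4 with CM WT. They number 12121 of the 25209 genes in that table. There were 2 libraries of CM WT and 2 of CM KO4, and 2 of CM KO8, a second clone carrying the same kind of disruption, were used for comparison. Each clone carried 3 transcription terminators in a row, preceded by an mCherry or puromycin resistance gene and inserted with CRISPR behind exon 3, and the WT cells had not been through that selection, so each genotype was represented by 1 clone or line. All CM cultures had been primed for 2 days in serum medium with LIF, grown as hanging drops of 1000 cells in 25 µl for 4 days and plated on gelatine for 1.5 days, the last 2 steps with 50 µg/ml vitamin C, and were collected whole on Day 7.5. NPC WT and NPC KO4, 2 libraries each, came from the neural progenitor cell (NPC) protocol, in which embryoid bodies were treated with retinoic acid and collected on Day 10.

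A differentiating embryoid body forms cells of all germ layers. Cardiomyocytes, endothelium and blood arise from mesoderm that passes through a primitive streak-like state, in which Bmp, Wnt and Nodal signals act, and cells that escape these signals tend to turn to anterior neural fates. A CM culture is therefore a mixture, and its bulk RNA holds markers of heart muscle together with those of vessels, primitive red cells, connective tissue, endoderm and ectoderm. In such bulk libraries, fewer cells of a type and less RNA per cell cannot be told apart, and "lost" or "gained" is used below only for RNA levels.

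The authors' table lists a base mean, a shrunken log2 fold change of KO4 over WT with its standard error, and an adjusted p from the DESeq2 Wald test, and a gene was called at an adjusted p under 0.05. The reads of the individual libraries were rebuilt from these values for 11887 members, and are given as normalised reads, meaning reads divided by the size factor of the library. The WT and KO4 libraries held an estimated 17200000 to 19100000 reads in genes, rounded to 3 digits. Libraries of a pair are given with the deeper library first, because which replicate number each carries is not known. The median absolute log2 difference was 0.134 between the WT libraries and 0.0933 between the KO4 libraries, against 0.406 between the group means. Zfp512b itself stood at 1118 and 1060.1 normalised reads in WT, 184 and 209 in KO4 and 155 and 173 in KO8, so the KO4 libraries carried the label's direction. Of the members on chromosome 8, 414 of 665 were called higher and 84 lower, with a median log2 fold change of 0.50 against -0.02 elsewhere. Counts without that chromosome are given only for the neural progenitor and DNA replication genes called higher. All other list counts include its members, and 5 of the higher or lower list counts moved when it was left out. The members nearest the limit were Gad2, with a base mean of 50.1, and Trpv4, just outside it at 49.98.

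The CM culture of KO4 lacked most heart muscle, vessel and blood RNA and held more RNA of neural progenitor genes than WT. Of 12121 members tested, 3231 (26.7%) were called lower and 3184 (26.3%) higher, together 6415 (52.9%), and the median log2 fold change of all members was 0.0037. The large changes were mostly downward. By the ratio of group means, 233 members were called lower by at least 16-fold and 38 higher by at least 16-fold. At 4-fold the numbers were 702 and 200. In 9740 of the 11887 rebuilt members (81.9%) the WT and KO4 libraries did not overlap, beside the 52.9% that were called. Since 26.7% of all members fell and 26.3% rose, a list with such shares called stands at the level of the whole table. No set test was made, so each list below is described by its counts and its median beside these values.

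The 10 members that fell most were Tnni1, Myl7, Tie1, Myh6, Hspb7, Myl4, Hbb-y, Asb2, Myl2 and Grb10. Of these, Tnni1, Myl7, Myh6, Myl4 and Myl2 encode sarcomere proteins, Hspb7 and Asb2 are expressed in striated muscle, Tie1 is an endothelial receptor, Hbb-y is an embryonic globin and Grb10 is an imprinted growth regulator. Among the 10 that rose most were Nr2e1, Fezf1, Zic1, Wnt8b, Sox1, Emx2, Six6, Fezf2 and Foxe3. Of these, Nr2e1 and Fezf2 are transcription factors of the forebrain, Six6 is one of the optic field and Foxe3 one of the lens.

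**Figure D1:**
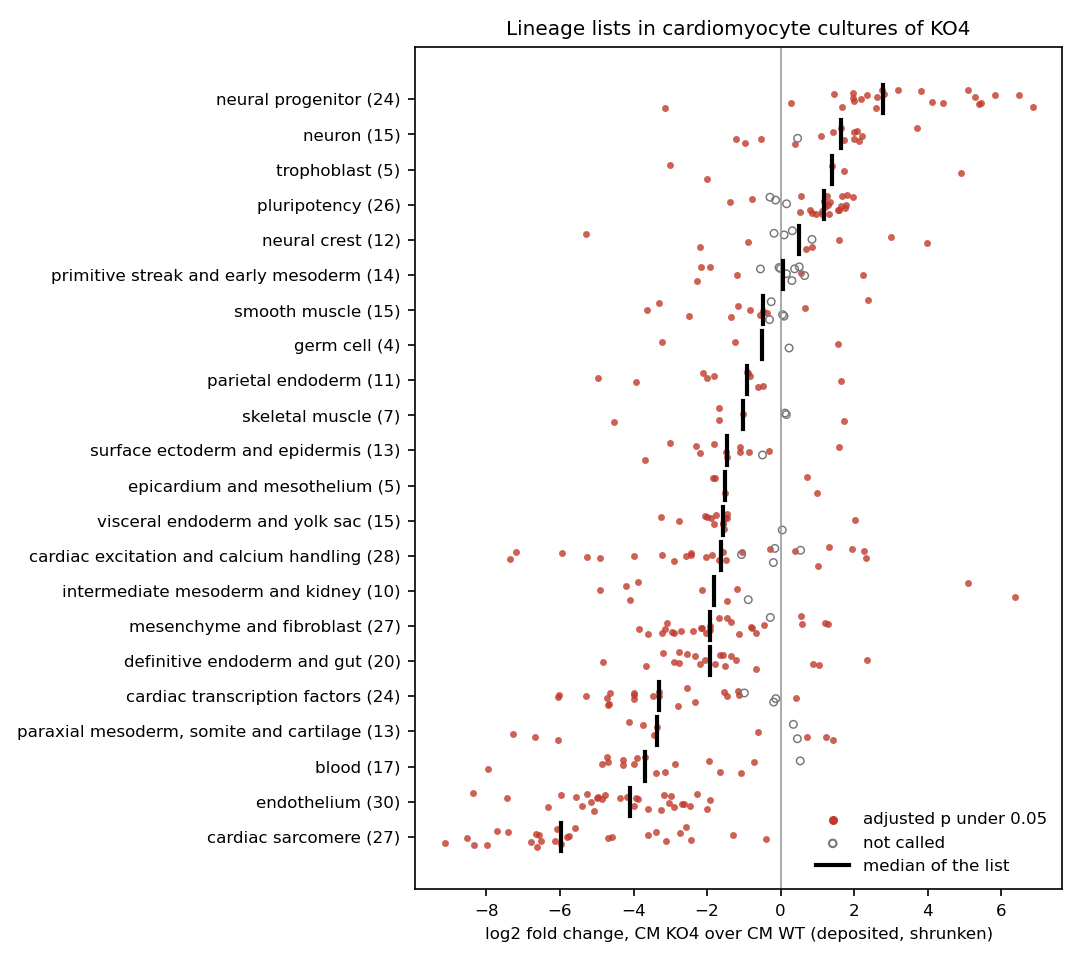
Deposited log2 fold change of CM KO4 over CM WT (x axis) for the members of 22 lineage lists (y axis, number of members in brackets), with called genes filled, others open and the median of each list as a bar. The medians run from -5.97 for the cardiac sarcomere to 2.78 for neural progenitors, and all 30 endothelial genes lie left of 0.

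The promoters of some sarcomere genes hold a motif that the choice of members did not use. Serum response factor binds the CArG box, which reads alike on both strands. This motif was looked for in the 250 bases before the gene start in the RefSeq promoter table (GRCm38.p6). The first entry per gene was used, and not every chromosome was included. It was found in 378 of 27025 promoters (1.40%), in 1.22% of the promoters of members, and in 5 of the 23 sarcomere promoters with an entry. The letters AGATAA, read on either strand and known as a GATA motif, were in as many sarcomere promoters, 5 of 23. They were in 10.25% of all promoters and in 5.22% of the promoters of members. The motifs and the genes shown were picked with the fold changes known, and a match describes the letters only. All 5 sarcomere genes with a box are shown, and each fell by 52.4-fold or more in KO4. Their 100 bases before the start are printed 5′ to 3′, with the box in capitals. They lie at Myl3 at chr9:110763578-110763677 (plus strand), Myl7 at chr11:5898783-5898882 (minus strand), Actc1 at chr2:114052876-114052975 (minus strand), Myom1 at chr17:71019457-71019556 (plus strand) and Ldb3 at chr14:34588682-34588781 (minus strand).
Myl3: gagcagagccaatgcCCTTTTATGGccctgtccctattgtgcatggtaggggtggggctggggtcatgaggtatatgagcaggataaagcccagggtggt
Myl7: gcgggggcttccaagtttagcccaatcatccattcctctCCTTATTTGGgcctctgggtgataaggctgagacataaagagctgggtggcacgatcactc
Actc1: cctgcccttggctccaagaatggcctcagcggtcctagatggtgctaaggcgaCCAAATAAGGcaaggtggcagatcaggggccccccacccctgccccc
Myom1: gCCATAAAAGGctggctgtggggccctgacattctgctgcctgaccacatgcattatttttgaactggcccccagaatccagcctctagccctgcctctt
Ldb3: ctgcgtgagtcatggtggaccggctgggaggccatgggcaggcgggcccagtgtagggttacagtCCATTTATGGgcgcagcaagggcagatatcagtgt

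Each of these genes was far lower in KO4. Myl7, the atrial regulatory light chain, had 3566 and 4097 normalised reads in WT and 6.16 and 6.31 in KO4. Myl3, a ventricular light chain, had 2401 and 2734 against 2.05 and 16.8. The Z-disc gene Ldb3 had 1523 and 1440.4 against 14.4 and 10.5, and the M-band gene Myom1 2619 and 2277 against 46.2 and 47.3. Cardiac actin, Actc1, was too abundant for its libraries to be rebuilt, and its group means were 19054 in WT and 345 in KO4, a 55.2-fold difference. The WT and KO4 libraries of the rebuilt genes did not overlap. The box began 35 to 99 bases before the start.

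The sarcomere, the contractile unit of heart muscle, had the lowest median of the 32 lists. All 27 of its 27 members were called lower, with a median log2 fold change of -5.97, and 20 were lower by at least 16-fold. The 7 other listed genes, Myom2, Tcap, Myoz2, Smpx, Xirp2, Lmod2 and Casq2, were under the base mean of 50. Myh6, the alpha myosin heavy chain, had 10381 and 9847 normalised reads in WT and 27.7 and 26.3 in KO4. This 375-fold difference had a log2 fold change of -8.33 ± 0.20. Tnni1, the slow troponin I of the embryonic heart, had 2788 and 3222 in WT and 0 and 2 reads in KO4. Its ratio of 2858 had a 95% counting interval of 801 to 23888. Such intervals, like the bounds for genes with no read in a group, treat reads as independent. Reads were not, so the intervals are too narrow and the bounds too high. Myl2, which marks ventricular muscle, had 909 and 1129 in WT and 2 and 0 reads in KO4, and Myl4, an atrial light chain, had 4077 and 4559 against 9.24 and 16.8. Myh7, the beta myosin heavy chain, differed 116-fold by group means. The members that fell least were Tpm1 (log2 fold change -0.39 ± 0.09) and Cryab (-1.28 ± 0.13), a tropomyosin and a small heat shock protein that cells other than muscle also make. Summed over the 24 rebuilt members, the sarcomere list came to 60889 and 62685 normalised reads in WT and 2185 and 2277 in KO4. The abundant members Tpm1, Myh7 and Actc1 are not in these sums. Over all 27 members the group means summed to 122941 in WT and 20164 in KO4, of which Tpm1 made up 22881 and 17422.

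Genes of cardiac excitation and calcium handling fell less evenly. Of 28 members, 18 were called lower and 6 higher, with a median of -1.61, and 8 listed genes, among them Nppa, Nppb and Pln, were under the base mean of 50. Ryr2, the calcium release channel of heart muscle, had 1677 and 922 normalised reads in WT and 12.3 and 20.0 in KO4 (log2 fold change -5.27 ± 0.47, adjusted p = 2.1e-27). Its WT libraries differed from each other but stayed far above KO4. Gja5, the connexin of atrial and conduction cells, had 880.2 and 1245 against 4.10 and 1.05, and Popdc2 had 1206 and 1257 against 4.10 and 5.26. Slc8a1, the sodium-calcium exchanger, kept more, with 7726 and 6616 against 237 and 229. Atp2a2, the calcium pump that most cells use, fell by 1.21-fold (log2 fold change -0.28 ± 0.09). The members that rose were Cacna1g, Hcn2, Kcnj3, Kcna5, Gja1 and Gjc1, all channels or connexins. Cacna1g, a T-type calcium channel, had 189 and 251 in WT and 1136 and 1113 in KO4, and Gja1 rose 2.04-fold by group means.

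Most transcription factors of the heart list fell. Of 24 members, 20 were called lower, 12 of them by at least 16-fold, and the median was -3.30. Nkx2-5, the homeobox factor of cardiac progenitors, had 1100.3 and 1312 normalised reads in WT and 11.3 and 17.9 in KO4 (log2 fold change -6.04 ± 0.28). The muscle methyltransferase gene Smyd1 had 2326 and 2429 against 30.8 and 33.6, and Myocd, the cofactor of serum response factor, 1205 and 1095 against 23.6 and 27.3. Gata4 and Gata5, zinc finger factors of heart and endoderm, had 3656 and 2543 against 114 and 259 and 509 and 459 against 2.05 and 10.5. Each of these 5 factors was below its WT libraries in both KO4 libraries. Tbx5, Meis1 and Srf were not called.

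**Figure D2:**
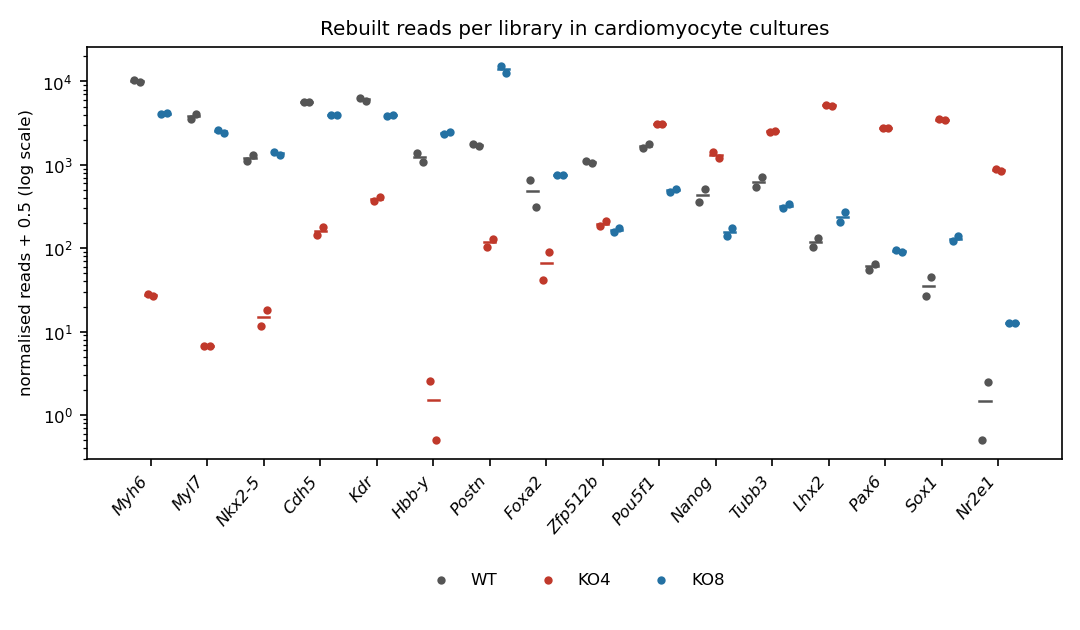
Rebuilt normalised reads plus 0.5 (y axis, log scale) of 16 genes (x axis) in each library of CM WT, CM KO4 and CM KO8, as 1 point per library with a bar at the mean of the pair. Myh6, Myl7 and Nkx2-5 sit at 27.7 and 26.3, 6.16 and 6.31 and 11.3 and 17.9 in KO4, whereas Sox1 stands at 3526 and 3430.1 in KO4 against 26.1 and 44.3 in WT and 121 and 138 in KO8.

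Endothelium, the lining of vessels, was lower in every listed gene. All 30 of its 30 members were called lower, 29 of them by at least 4-fold and Ecscr by 3.91-fold, with a median of -4.09. Tie1, a receptor of the angiopoietin system, had 3695 and 3773 normalised reads in WT and 6.16 and 8.41 in KO4 (log2 fold change -8.36 ± 0.31). Cdh5, the junctional cadherin of endothelium, had 5599 and 5624 against 146 and 179, and Kdr, the VEGF receptor that also marks early mesoderm, 6330.4 and 5851 against 366 and 414. Icam2 had 588 and 720.2 in WT and no read in either KO4 library, so it was at least 419.9-fold lower, counting 3 reads over the KO4 pair as the limit. Pecam1, an adhesion molecule that stem cells also make, was 8.12-fold lower, with 2361 and 2469 against 339.7 and 256. Emcn, Sox18 and Plvap, a sialomucin, a vascular transcription factor and a protein of endothelial fenestrae, fell by 143-, 75.2- and 50.4-fold. The summed level of the list was 51109 and 51537 in WT and 3463 and 3983 in KO4.

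Genes of primitive red cells were read in WT cultures and had few reads in KO4. Of 17 blood members, 16 were called lower and none higher, with a median of -3.70. The member not called was Coro1a, and 12 listed genes, most of them adult globins and white cell genes, were under the base mean of 50. The embryonic globin Hbb-y had 1390.3 and 1074 normalised reads in WT and 2 and 0 reads in KO4, a ratio of 1201 with a 95% counting interval of 328 to 9795. Hbb-bh1 and Hba-x, the other embryonic globins, had 2611 and 2015 against 4.10 and 18.9 and 2351 and 1896 against 2.05 and 18.9. Their KO4 libraries differed several-fold from each other at these few reads, and both were far below WT. Alas2, the haem synthesis enzyme of red cells, had 380.4 and 380.3 against 17.4 and 13.7, and Slc4a1, the anion exchanger of their membrane, 215 and 197 against 2.05 and 6.31.

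Other mesoderm was lower in part. Of the 27 members for mesenchyme and fibroblasts, 22 were called lower and 4 higher, with a median of -1.92. Postn, a matrix protein of cardiac cushions, had 1803 and 1689 normalised reads in WT and 104 and 130.4 in KO4. The fibrillin gene Fbn1 had 3542 and 2655 against 335 and 315, and Snai2, a factor of epithelial-mesenchymal transition, 464 and 361 against 34.9 and 49.4. The collagens did not move together. Col3a1 fell 12.5-fold by group means, whereas Col1a1 rose 1.50-fold and Col1a2 2.47-fold, and Lox, which cross-links collagen, rose from 34.5 and 80.8 to 149.8 and 141. Smooth muscle had the median nearest 0 of the muscle lists, with 9 of 15 called lower, 2 higher and a median of -0.47. Acta2, smooth muscle actin, was 2.23-fold lower, Tagln had 7474 and 8819 against 4529.5 and 4666, and the pericyte gene Rgs5 had 1456 and 1366 against 30.8 and 85.2. Mylk, the kinase of the myosin light chain, rose from 102 and 93.6 to 499 and 566. Among 7 skeletal muscle members 4 fell and 1 rose, with a median of -1.03, and the myogenic regulators Myod1, Myog and Myf5 were under the base mean of 50.

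Somite and kidney lists held genes that fell and genes that rose. In the paraxial mesoderm list 8 of 13 members fell and 3 rose, with a median of -3.35. Another 8 listed genes, among them Meox1, Meox2 and Nkx3-2, were under the base mean of 50. Pax1, a factor of the sclerotome, had 1051 and 1800.1 normalised reads in WT and none in KO4, at least 915-fold lower. Hapln1, a cartilage and heart matrix linker, had 8954 and 7950 against 17.4 and 43.1, and Foxc2 474 and 790.2 against 23.6 and 37.9. Sox9 and Col2a1 were not called, and Tcf15, Sox5 and Sox6, of which Sox5 and Sox6 are also made in neural progenitors, rose by 1.65- to 3.07-fold. In the intermediate mesoderm list 7 of 10 fell, with Osr1 at 111 and 167 against 0 and 2 reads. The 2 that rose, Pax2 and Emx2, are also factors of the developing brain and eye, and went from 9.32 and 17.7 to 576 and 580.4 and from 9.32 and 4.93 to 904 and 868. Of 5 epicardial members 3 fell and 2 rose, with a median of -1.51, and Krt19 stood at 4151 and 3446 against 1074 and 1012.

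Most endoderm genes were lower in KO4, but the WT libraries themselves differed in them. Of 20 definitive endoderm and gut members 17 were called lower and 3 higher, with a median of -1.92. Foxa1 and Foxa2, the pioneer factors of endoderm, had 658 and 302 and 652 and 310.4 normalised reads in the WT libraries, against 12.3 and 40.0 and 41.0 and 89.4 in KO4. Shh, a morphogen of gut and notochord, had 227 and 244 against 8.21 and 1.05, and Sox17 1084 and 768 against 66.7 and 122. The KO4 libraries were below both WT libraries in each of these. The members that rose were Sox21, Prom1 and Trh, of which Sox21 and Prom1 are also made in neural progenitors. In the visceral endoderm and yolk sac list 13 of 15 fell, with a median of -1.57. Genes of its secreted proteins differed between the WT libraries, with Rbp4 at 1757 and 565 against 32.8 and 79.9 and Apoa1 at 586 and 136 against 16.4 and 42.1. Fgb had 139.9 and 30.5 in WT and 13.3 and 18.9 in KO4, and Fgb and Foxa3 were not called by limma once the deeper WT library was left out. How far the difference between the WT libraries bears on the endoderm folds was not tested. Lrp2, the endocytic receptor also found in neuroepithelium, rose from 1895 and 1468 to 6794 and 7145. In the parietal endoderm list 10 of 11 fell, with a median of -0.93, with the laminin gene Lama1 at 1945 and 1491 against 925 and 869 and Sox7, also an endothelial factor, at 1007 and 1153 against 20.5 and 40.0.

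The primitive streak list had a median near 0. Of 14 members 8 were not called, 4 fell and 2 rose, with a median of 0.08. T, the brachyury factor of the streak, had 103 and 110.3 normalised reads in WT and 85.2 and 127 in KO4, with overlapping libraries and a log2 fold change of -0.0035 ± 0.33. Eomes had 935 and 404 against 557 and 736, and Mixl1 88.6 and 32.5 against 56.4 and 98.8, again overlapping. Lefty1 and Lefty2, inhibitors of Nodal, rose from 141 and 95.6 to 601 and 568 and from 546 and 574 to 984 and 680.3, and Snai1 fell from 346 and 449 to 86.2 and 114. The call of Lefty2 was lost by limma without the deeper KO4 library or without either WT library. Of 13 surface ectoderm members 11 fell, with a median of -1.47, and Tfap2c, which trophoblast and germ cells also make, rose from 169.7 and 172 to 633 and 430.1. The desmosome gene Dsp had 12011 and 7681 against 2652 and 2536, and Krt7 878 and 925 against 129 and 81.0. Of 5 trophoblast members Tpbpa, Rhox6 and Rhox9 rose and Krt7 and Tead4 fell (median 1.39), and limma lost the call of Rhox9 without the deeper library of either group. Of 4 germ cell members Tdrd12 rose and Prdm1 and Mov10l1 fell (median -0.51).

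Neural progenitor members rose almost without exception, in a culture that was not directed to neural fates. Of 24 members 23 were called higher, 18 of them by at least 4-fold, with a median of 2.78, and 21 of the 23 were off chromosome 8, where Sox1 lies. Members near 0 in WT, such as Zic1 and Rax, passed the base mean limit only through KO4, so these counts are partly set by the limit. Sox1, the earliest marker of the neural plate, had 26.1 and 44.3 normalised reads in WT and 3526 and 3430.1 in KO4 (log2 fold change 6.48 ± 0.19, adjusted p = 1.9e-245). Pax6 and Lhx2, factors of forebrain and eye, had 55.0 and 65.0 against 2795 and 2787 and 104 and 133 against 5258 and 5094. Rax, a factor of the eye field, had 14.9 and 18.7 against 1167 and 1121, and Zic1 2.80 and 5.91 against 869 and 917. Sox2 and Sox3, shared by stem cells and neural progenitors, had 1497 and 2000.1 against 7354 and 6393 and 151 and 112 against 1909 and 1946. For each of these genes both KO4 libraries were above both WT libraries. Irx3, which marks more posterior neural tube and is also made in mesoderm, was the member that fell, from 1261 and 1635 to 171 and 144. The other 6 listed genes, Fabp7, En1, En2, Pou3f2, Olig2 and Nkx2-2, were under the base mean of 50.

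Other genes among those that rose most are not in the list. Nr2e1 went from 0 and 2 reads in WT to 904 and 849 normalised reads in KO4, a ratio of 889 with a 95% counting interval of 253 to 7552. Fezf1 and Fezf2 rose from 7.46 and 1.97 to 1155 and 1106 and from 4.66 and 9.85 to 779 and 674, and Six6 from 9.32 and 13.8 to 1165 and 1282. Foxe3 had no read in WT and 211 and 209 in KO4, at least 146-fold higher, counting 3 reads over the WT pair as the limit. Among the clustered Hox genes, which pattern the trunk, Hoxb3 alone was a member, and it fell from 74.6 and 108 to 7.18 and 17.9. The other 33 listed Hox genes were under the base mean of 50, so nothing is said of them.

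Genes of differentiated neurons had a lower median. Of 15 members 11 were called higher and 3 lower, with a median of 1.65, and 15 more were under the base mean of 50. Tubb3, a neuronal tubulin, had 536 and 720.2 normalised reads in WT and 2488 and 2572 in KO4, and Stmn2 477 and 585 against 2370.5 and 2398. Syt1, of synaptic vesicles, had 34.5 and 24.6 against 391 and 492. Dpysl3, Ncam1 and Chga were lower, and Chga was not called by limma without the deeper WT or without the shallower KO4 library. The neural crest list was mixed, with 5 of 12 higher, 3 lower and a median of 0.50. Pax3 and Tfap2a, made at the neural plate border, rose from 14.0 and 14.8 to 237 and 345 and from 22.4 and 19.7 to 191 and 216, whereas Ednrb, which endothelium also makes, fell from 941 and 696 to 12.3 and 21.0.

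The same clone was also taken through the NPC protocol, where neural genes were higher than in NPC WT as well, with smaller medians. The prior that shrinks fold changes was estimated in each table separately. There, 17 of 23 neural progenitor genes were higher, beside 8.75% of all genes past the same limit, and 1 was lower, beside 5.77%. The medians were 1.11 in the NPC table and 2.78 in the CM table. Each is over the list genes past the limit in that table, 23 in NPC and 24 in CM, and against the WT of that protocol. Sox1 had a log2 fold change of 1.05 ± 0.22 in NPC and 6.48 ± 0.19 in CM, and the z test of the difference gave an adjusted p of 1.3e-76. For Pax6 the values were 1.03 ± 0.17 and 5.45 ± 0.17 (adjusted p = 1.0e-75). Lhx2 was 0.08 ± 0.15 in NPC, where it was not called, and 5.39 ± 0.13 in CM (adjusted p = 1.9e-151). Neuron genes had 19 of 27 higher in NPC, with a median of 0.74. Irx3 changed in opposite directions, 1.28 ± 0.14 and -3.14 ± 0.18 (adjusted p = 1.2e-84). By this test 40.3% of all members present in both tables differed. The endothelial list, lower throughout in CM, had 13 of 29 genes higher and 0 lower in NPC.

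**Figure D3:**
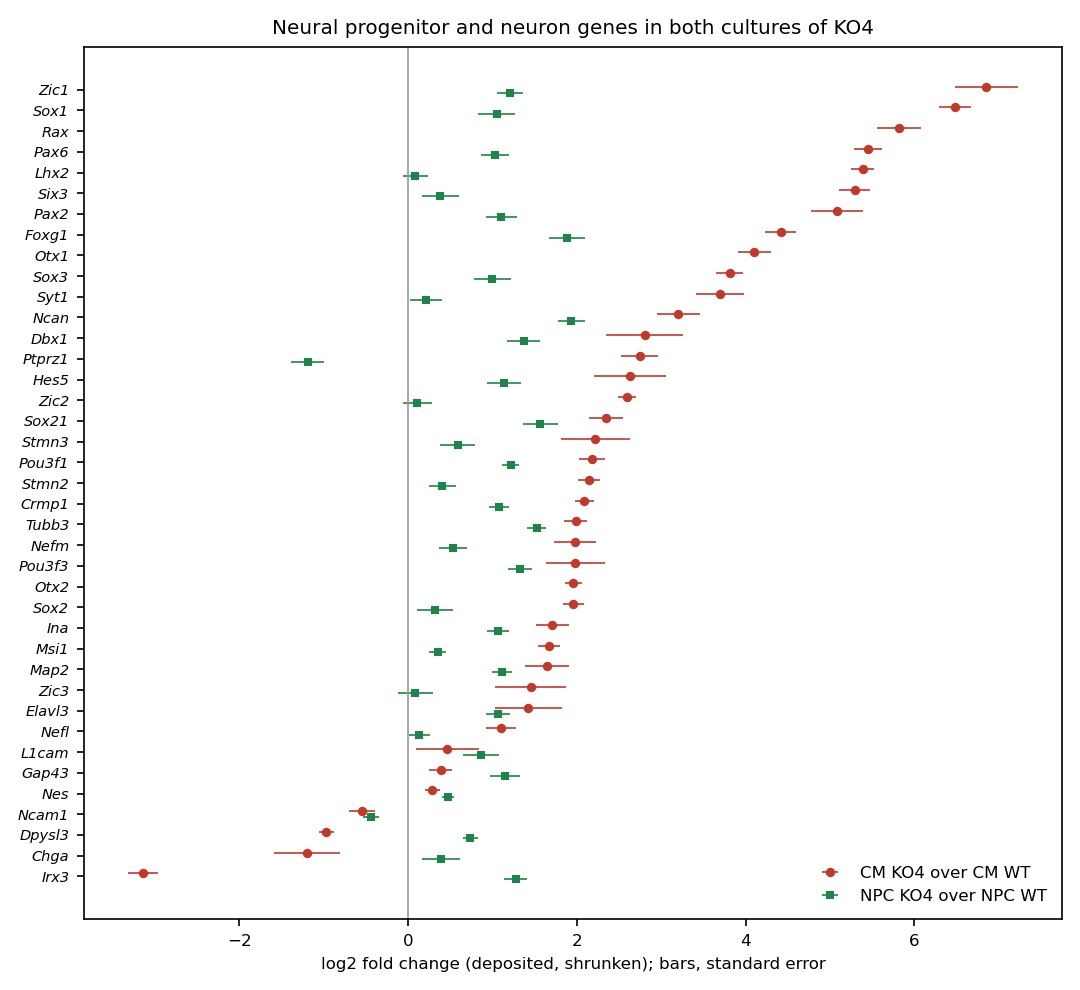
Deposited log2 fold change with its standard error (x axis) of the neural progenitor and neuron members (y axis) in CM KO4 over CM WT (circles) and NPC KO4 over NPC WT (squares, left out where the NPC base mean was under 50). Zic1, Sox1, Rax and Pax6 lie between 5.45 and 6.85 in CM, and Irx3 is at -3.14.

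Most genes of pluripotency, the state from which the cultures started, were higher in KO4. Of 26 members 21 were called higher and 2 lower, with a median of 1.19, and none rose by 4-fold or more. Pou5f1, which encodes Oct4, had 1605 and 1796 normalised reads in WT and 3063 and 3072 in KO4 (log2 fold change 0.85 ± 0.10, adjusted p = 7.1e-15). Nanog had 359 and 515 against 1412 and 1210.3, and Zfp42, which encodes Rex1, 129 and 175 against 669 and 417. The groups did not overlap in these genes. Klf4 and Klf2 were the members that fell, from 265 and 282 to 113 and 87.3 and from 1214 and 1277 to 863 and 571, and both are also made in endothelium. Sox2 counts in this list and in that of the neural progenitors.

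Signalling genes moved in both directions. In the BMP, TGF-beta and Nodal list 19 of 33 members fell and 6 rose, with a median of -0.68. The ligands Bmp2, Bmp4 and Bmp5 had 1870.5 and 1255 against 161 and 177, 2046 and 1939 against 622 and 631 and 1063 and 1033 against 102 and 210.3 normalised reads. The secreted BMP antagonists Grem1 and Nog rose from 16.8 and 19.7 to 381 and 372 and from 282 and 344 to 633 and 879, and Fst, which binds activin, from 475 and 568 to 1688 and 1637. Other members went the other way. The inhibitors Bambi, Smad6, Smad7 and Fstl1 fell (log2 fold changes -2.02, -2.18, -0.53 and -1.52), the BMP antagonist Chrd was not called (-0.06 ± 0.42), and the ligand Gdf6 rose (1.11 ± 0.37), a call that limma lost without the shallower library of either group. In the Wnt list, 15 of 40 rose and 13 fell, with a median of 0.24. Wnt2, made in heart and vessels, had 362 and 332 against 11.3 and 12.6, and Wnt11 464 and 474 against 18.5 and 28.4, whereas Wnt1, of the dorsal neural tube, had 3.73 and 21.7 against 125 and 110.4. The Wnt antagonists Sfrp1 and Sfrp2 rose from 2326 and 1843 to 6897 and 6701 and from 198 and 254 to 1723 and 1912, Sfrp1 lying on chromosome 8, and Frzb rose as well (1.59), whereas the antagonists Sfrp5, Dkk1 and Dkk2 fell (log2 fold changes -3.31, -1.91 and -1.71) and Dkk3 was not called. The medians of the primitive streak, trophoblast, Wnt, Notch and FGF lists changed sign when the base mean had to reach 500. That limit left only Krt7 in the trophoblast list and only Eomes, Lefty2 and Cyp26a1 in the primitive streak list.

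Notch genes moved in both directions. Of 20 members 9 fell and 7 rose, with a median of -0.10. Dll4, the arterial ligand, had 469 and 640.4 normalised reads in WT and 7.18 and 12.6 in KO4, and the cardiovascular targets Hey1 and Hey2 had 1342 and 1874 against 248 and 202 and 561 and 611 against 62.6 and 47.3. Dll1 and Hes5, a ligand and a target in neural progenitors, went from 104 and 68.0 to 1034 and 1082 and from 9.32 and 23.6 to 131 and 131. Hey1 and Hey2 are also in the list of cardiac factors, and Hes5 in that of neural progenitors. In the FGF and retinoic acid list 13 of 27 fell and 5 rose (median -0.55), with Fgf15, a neural FGF, at 249 and 249 against 911 and 813 and Rarb, a retinoic acid receptor, at 512 and 517 against 56.4 and 104.

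Nearly all cell cycle genes rose. Of 44 members for mitosis 43 were called higher and 0 lower, with a median of 0.65, and none rose by 2-fold. Plk1, a mitotic kinase, had 2146 and 2331 normalised reads in WT and 4098 and 4310.2 in KO4, and Mki67 5151 and 4533 against 6965 and 6633. Of 41 DNA replication members 39 rose and none fell, with a median of 0.78, and 33 of those that rose were off chromosome 8. Of the replication genes 9 rose by at least 2-fold. Mcm5, a subunit of the replicative helicase, had 3673 and 3898 against 10111 and 10097, and Cdt1, which loads it, 1180.5 and 1317 against 3519 and 3194, and both genes lie on chromosome 8. Cdkn1a, the inhibitor of cyclin-dependent kinases in the stress list, fell from 3907 and 3869 to 995 and 894. Of 28 members for oxidative phosphorylation and fatty acid oxidation 18 were not called, and the median was -0.08. The 9 that fell included Ppargc1a and Esrrg, regulators of mitochondrial content, and the fatty acid transporter Cd36, which had 120.3 and 149.8 in WT and no read in KO4, at least 86.7-fold lower. Of 26 glycolysis and hypoxia members 12 rose and 3 fell, with a median of 0.31. In the stress and immediate-early list 7 of 16 fell and 2 rose (median -0.60), and Egr1 and Jun went from 1304 and 1092 to 515 and 510.0 and from 2709 and 2518 to 1335 and 1245.

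The second clone, KO8, stood apart from KO4 in heart muscle, endothelial and blood genes, but not in every list that fell. The KO4 and KO8 libraries were compared directly with limma on the rebuilt reads, since both deposited tables use the same WT libraries and the KO8 fold changes were shrunken more strongly. Of 11886 members, 3515 (29.6%) were lower and 3454 (29.1%) higher in KO4 than in KO8. All 24 sarcomere genes tested were lower, with a median log2 difference of -5.58, as were all 30 endothelial genes (median -3.91) and 16 of 17 blood genes (median -5.98). KO8 was itself below WT in summed reads of rebuilt sarcomere members (34718 and 32754 against 60889 and 62685) and of endothelium (37341 and 36846 against 51109 and 51537). In paraxial mesoderm and skeletal muscle it was also below KO4. The sums there were 9256 and 9734 against 10834 and 11440, and 873 and 934 against 1124 and 961. Myh6 had 4056 and 4200.0 normalised reads in KO8, between WT and KO4, and the limma difference was -7.23 ± 0.07 (adjusted p = 4.1e-11). Nkx2-5 had 1417 and 1322 in KO8, above both WT libraries. Blood and matrix genes in KO8 exceeded WT, with Hbb-y at 2359 and 2506, Hba-x at 10326 and 10309 and Postn at 15448 and 12547. Hand1, a factor of ventricle and extraembryonic mesoderm, named after its values were seen, had 1637 and 877 in WT, 81.1 and 205 in KO4 and 7732 and 6796 in KO8. For these 4 genes KO4 lay below and KO8 above both WT libraries.

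The clones also stood apart in the lists that rose. The group means of the neural progenitor list summed to 12001 in WT, 50049.5 in KO4 and 7831 in KO8, and those of the pluripotency list to 26074, 46723 and 20956, so KO8 was below WT in both. Of 24 neural progenitor genes 23 were higher in KO4 than in KO8 (median 3.67), and Sox1 had 121 and 138 and Pax6 93.9 and 90.1 normalised reads in KO8, which is above both WT libraries. Pluripotency genes differed in the same direction, with 21 of 25 higher in KO4 (median 3.29). Pou5f1 had 473 and 520.3 and Nanog 139 and 176 in KO8, below both WT libraries, whereas KO4 was above them. Cell cycle genes differed less, with 31 of 43 mitosis and 31 of 41 replication genes higher in KO4, by medians of 0.28 and 0.45. By the z test on the deposited fold changes, 34.0% of all members tested differed between the clones. Zfp512b did not pass this test (log2 fold changes -2.43 ± 0.16 in KO4 and -2.55 ± 0.15 in KO8), nor did Mki67 (0.49 ± 0.09 and 0.53 ± 0.09). With 1 clone on each side, a difference between the clones and a difference between their cultures cannot be told apart.

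**Figure D4:**
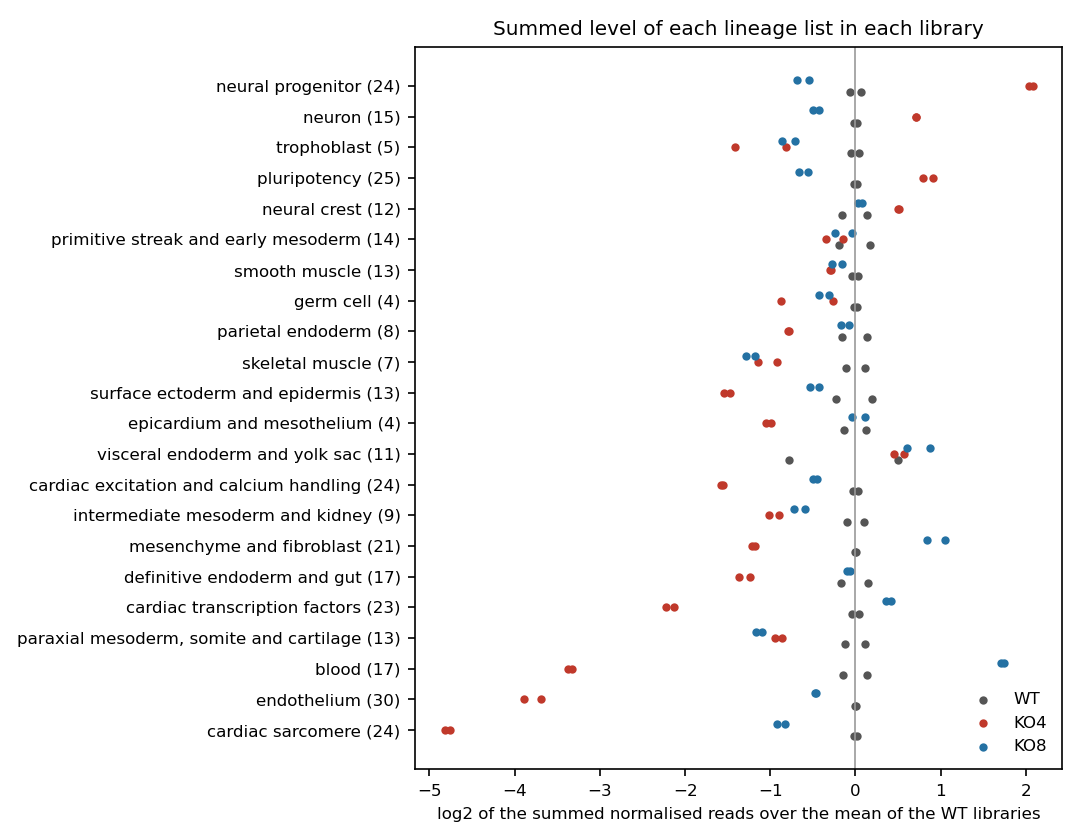
Log2 of the summed normalised reads of each lineage list over the mean of the WT libraries (x axis), with 1 point per library of CM WT, CM KO4 and CM KO8, for lists with at least 4 rebuilt members (y axis, number in brackets). Members whose reads could not be rebuilt are left out, among them the abundant Tpm1, Myh7 and Actc1 of the sarcomere list. Its 24 rebuilt members came to 2185 and 2277 reads in KO4 and 34718 and 32754 in KO8, and the blood list came to 993 and 1034 and 34549.8 and 33818. The visceral endoderm and yolk sac list shows 11 of 15 members, including Lrp2, which rose. Its sums were 7490 and 3091 in WT and 7247 and 7870 in KO4, although 13 of the 15 members were called lower.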

How the data were processed

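Total RNA was extracted from whole cultures for mRNA sequencing. Per the submitters' processing notes and the study's methods, the authors trimmed reads with Trim Galore 0.6.7, aligned them to mm9 with HISAT2 2.2, counted them with featureCounts and fitted DESeq2 1.46.0, clone against WT of the same stage. The deposited tables give, per gene, the base mean (a signal: mean of reads divided by size factors), the log2 fold change with its standard error, on a log2 scale and shrunken by a prior, the Wald score and the p-value with its Benjamini-Hochberg adjustment. The fold changes, standard errors and p-values printed are those the authors deposited, because the members are defined by that table. Whole reads per library were rebuilt with Python 3.11.15 as the set of integers that gives the deposited base mean, fold change and standard error, for 11887 of 12121 members. Simulated tables of 1000 genes gave 996 rebuilt genes, of which 996 were right. Genes whose reads could not be rebuilt have group means solved from the table, or none. Among genes with 2 reads in all, 654 had both in 1 library and 96 in 2, so reads are not independent. The exact Poisson 95% intervals and the floor of 3 reads treat them as independent. The intervals are therefore too narrow and the bounds too high, and neither holds anything beyond counting error. limma 3.58.1 (R 4.3.3) was run on log2 of normalised reads plus 0.5, with 6 CM libraries for the contrast of the clones. In simulated CM KO4 against CM WT it called 48% of 50 genes changed by 0.5 log2 and 94% of 50 changed by 1.0. Differences between deposited fold changes were tested by z from both standard errors. They were adjusted over all genes with an adjusted p in both tables, members or not, and all tests were two-sided. Nothing says that libraries of a group came from separate cultures, so p-values measure the spread between these libraries. The members and the gene lists were chosen with earlier results of these data known. Named genes are Zfp512b and Zfp512, the 10 called members that rose and the 10 that fell most, up to 5 in each direction in each list, and the first 3 of each list; Actc1, Myl3, Myom1, Ldb3, Tpm1, Cryab, Gjc1, Ecscr, Hand1, Bambi, Smad6, Smad7, Fstl1, Frzb, Dkk1, Dkk2, Gad2 and Trpv4 were named after their values were seen. Tbx5, Meis1, Srf, Coro1a, Sox9, Col2a1, Chrd and Dkk3 are named as members that were not called. Some genes that this rule names are not reported here. Chromosomes came from the mm9 gene annotation where it lists the symbol and from RefSeq otherwise.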

Additional observations from a re-analysis of the deposited data

Results flagged for a closer look

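Zfp512b, Zfp512 and the first gene of each list where that gene was a member, 25 genes in all, were tested for a change in CM KO4 that differs from that in another comparison, by the z test on the deposited log2 fold changes. Against CM KO8, 18 of 25 differed, and the values are the log2 fold change in CM KO4 minus that in CM KO8. The difference was negative, with KO4 further below WT or less far above it, for Myh6 (-7.06), Ryr2 (-4.91), Nkx2-5 (-6.21), Acta2 (-0.91), Pecam1 (-2.37), Hbb-y (-8.89), Col1a1 (-1.89), Osr1 (-3.54), Foxa1 (-3.53), Afp (-3.25), Lama1 (-1.21), Bmp2 (-3.10) and Hk1 (-1.01). It was positive for Sox1 (5.16), Tubb3 (2.86), Pou5f1 (2.54), Wnt1 (2.88) and Mcm2 (0.53). Both comparisons share the WT libraries, and the KO8 fold changes carry the stronger shrinkage. Against NPC KO4, with its own WT libraries, 20 of the 23 genes tested in both tables differed. The CM value was lower for Ryr2 (-5.44), Nkx2-5 (-5.91), Pecam1 (-3.04), Hbb-y (-5.98), Osr1 (-5.25), Foxa1 (-2.21), Afp (-3.02), Lama1 (-1.28), Bmp2 (-3.09), Notch1 (-1.64) and Hk1 (-0.85). It was higher for Zfp512b (0.52), Acta2 (0.49), Col1a1 (1.50), Sox1 (5.43), Tubb3 (0.46), Pou5f1 (1.08), Wnt1 (2.96), Mki67 (0.45) and Mcm2 (0.73). For Pou5f1 the deposited change in CM was 0.85 ± 0.10 in KO4 and -1.70 ± 0.13 in KO8, and for Hbb-y it was -7.95 ± 0.44 and 0.94 ± 0.12, so these genes changed in opposite directions in the clones. What lies behind these differences was not tested.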

How the results depend on the processing

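With an absolute log2 fold change of at least 1, the calls fell from 6415 to 2130 (707 higher and 1423 lower), and at 0.5 the higher calls fell to 1997, because fewer genes can pass. With a base mean of at least 500, 4211 genes were called, 1904 of them lower. limma on the rebuilt values called 7207 genes (3614 higher and 3593 lower), and leaving out each library in turn with limma gave 5501 to 7165 calls, 2604 to 3562 higher and 2897 to 3603 lower, where a lone library was assumed to vary like the rest. The count stayed within 1.5 times under the stricter adjusted p, without a base mean filter, with p-values adjusted over all genes, without chromosome 8 and after centring. Of the list medians, under a base mean of at least 500 that of the primitive streak was -0.041, of trophoblast -3.02, of Wnt -0.087, of Notch 0.15 and of FGF and retinoic acid 0.049, and without a filter that of germ cells was 0.51, each with the opposite sign to the value above. No other list median changed sign under any alternative tried. With genes that had no read in 1 group at their bound, no list median changed sign, and the endothelial median was -4.20. Among 956 values of named genes with 1 library left out, 24 lost their call, 2 gained one and 1 changed sign. The change of sign was that of Eomes, which was 0.66 without the deeper WT library and -0.55 without the shallower. Its direction thus depended on which WT library was kept. The calls lost included those of Sp5, Lefty2, Foxa3, Fgb, Chga, Foxd3, Rhox9, Gdf6, Fgf4, Ndrg1, Vegfa and Fos. The limma contrast of the clones, the left-out libraries for lists and the bound were chosen after seeing the data. No paired analysis was possible because the rebuilt libraries carry no replicate number. Few reads limit the genes near 0, whose folds are given as counting intervals or bounds.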

Other observations

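Grb10, an imprinted gene on chromosome 11, was the most abundant of the members that fell most in CM KO4, with group means of 31006 normalised reads in WT, 152 in KO4 and 24307 in KO8. The deposited log2 fold change in KO4 was -2.55 ± 0.08 in naive cells, -2.14 ± 0.08 in primed cells, -7.09 ± 0.11 in NPC and -7.61 ± 0.11 in CM, and in CM KO8 it was -0.35 ± 0.08. It was thus already below WT in naive cells of this clone.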
